A study of Mus musculus with 16 samples.

Results

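Genes that mark B cells and plasma cells were examined in hamstring muscle of mice immunized with histidyl-tRNA synthetase (HRS), an antigen of anti-synthetase myositis. *Tnfsf13b*, which encodes a ligand that these cells receive, was examined with them. The genes were chosen by name, as 9 of the 26382 genes in the table: *Cd79a*, *Cd79b*, *Ms4a1*, *Pax5*, *Pou2af1*, *Mzb1*, *Sdc1*, *Tnfrsf17* and *Tnfsf13b*. A filter on low values (a mean of at least 0.5 normalized counts over the 16 libraries) kept 8 of the 9 and 16414 genes in all, and *Tnfrsf17* fell below it. Of the 8, 6 (*Cd79a*, *Cd79b*, *Ms4a1*, *Pax5*, *Mzb1* and *Pou2af1*) had group means under 0.5 in both PBS groups, so that they passed only through the immunized muscle, and counts over the genes are given as descriptions.

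B cells detect antigen through a membrane immunoglobulin that signals through the paired chains CD79A and CD79B. The transcription factor PAX5 holds B cell identity and is shut off when an activated B cell becomes a plasma cell, the cell that secretes antibody, whereas MZB1, syndecan-1 and the receptor BCMA mark that later stage. In inflamed muscle of patients with myositis, B cells and plasma cells are found among the infiltrating leukocytes, and BAFF, a cytokine made largely by myeloid cells, sustains B cell survival.

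The study followed an experimental myositis and asked in its bulk libraries whether mouse muscle showed an expression profile like that of patients with anti-HRS myositis. All 9 mice were female C57BL/6, aged 8 to 10 weeks when injected, and muscle was taken on day 14. In mice m862 to m866, recombinant HRS (3 to 5 mg/mL) went into the left hamstring (HRS leg, n = 5), and the right hamstring of the same mice is labelled as the contralateral PBS leg (n = 5). Mice m867 and m868 were given PBS alone and contributed both legs (PBS-only legs, 4 libraries from 2 animals). Mice m860 and m861 are labelled as treated with HRS, but their titles name an MBP fusion protein at 2 to 3 mg/mL and no leg (HRS-MBP muscle, n = 2). The stated protocol puts 50 μL of antigen into each side, while the titles of m862 to m866 separate an injected from a PBS leg, and the groups follow the titles. Legs of 1 animal share its circulation, and the 4 PBS-only legs are not 4 independent animals.

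The libraries held 8596070 to 73908300 reads, as implied by the value of 1 read in each, and were shallowest in mouse m868. That value differed between libraries, so that 3 reads correspond to 0.0324 normalized counts in the deepest library and to 0.364 in the shallowest. Summed over the 4 PBS-only libraries, *Ms4a1* rested on 6 reads, *Pax5* and *Pou2af1* on 8 each and *Tnfrsf17* on 9, and differences among such values were not detectable at this depth. Skeletal muscle markers (*Acta1*, *Ckm*, *Mb*, *Myh4* and *Tnnt3*) were present in every library, with summed levels of 32530 to 138100 normalized counts in HRS legs and 98240 to 158100 in contralateral PBS legs. The HRS leg of m866 stood apart from the other HRS legs: its skeletal muscle sum of 138100 lay in the range of the PBS legs, and its sum of regenerating muscle markers, 72.7, lay below all 5 contralateral PBS legs. In bulk muscle, fewer cells of a type and less RNA per cell cannot be told apart.

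Positions are given on the GRCm38 build. *Cd79a* (ENSMUSG00000003379.7) occupies chr7:24897381-24902197 and *Cd79b* chr11:106311341-106314762. *Ms4a1* lies at chr19:11249675-11266241, *Pax5* at chr4:44524757-44710487 and *Pou2af1* at chr9:51213708-51240080. *Sdc1* lies at chr12:8771323-8793715, *Tnfrsf17* at chr16:11313812-11320074 and *Tnfsf13b* at chr8:10006467-10039072. Each value is a sum over a whole gene. *Mzb1* overlaps a model of *SPATA24* on its own strand and *Ms4a1* and *Pax5* overlap antisense models, and whether the authors counted by strand is not given in the sources used here.

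Promoters of 3 of the genes are shown because *Cd79a* and *Pou2af1* were both higher in immunized muscle in every mouse, while *Sdc1* followed another pattern across libraries. The sequences are from RefSeq (GRCm38.p6), 5′ to 3′ on the gene's strand, cut where the gene model of the table begins, and capitals mark the letters of the motifs found. They cover chr7:24897247-24897380 for *Cd79a*, chr9:51213440-51213689 for *Pou2af1* and chr12:8771146-8771322 for *Sdc1*, all on the plus strand.
Cd79a: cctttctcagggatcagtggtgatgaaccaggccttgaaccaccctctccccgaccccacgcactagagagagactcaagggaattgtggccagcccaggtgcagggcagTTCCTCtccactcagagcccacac
Pou2af1: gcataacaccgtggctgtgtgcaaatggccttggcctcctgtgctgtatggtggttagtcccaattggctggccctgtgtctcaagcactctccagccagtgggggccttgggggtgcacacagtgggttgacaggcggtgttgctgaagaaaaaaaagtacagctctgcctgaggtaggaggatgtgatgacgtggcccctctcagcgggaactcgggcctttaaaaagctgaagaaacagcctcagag
Sdc1: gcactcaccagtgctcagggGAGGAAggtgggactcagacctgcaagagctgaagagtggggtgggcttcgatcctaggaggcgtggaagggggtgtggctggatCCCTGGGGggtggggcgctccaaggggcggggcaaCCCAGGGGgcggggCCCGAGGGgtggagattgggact

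Promoter entries were used for 6 of the 9 genes, without *Cd79b*, *Ms4a1* and *Mzb1*. The 250 bases before the RefSeq start were searched on both strands for the octamer ATGCAAAT, the EBF1 core CCCNNGGG and the PU.1 core GAGGAA, which occur in 1.60%, 11.8% and 23.3% of 32851 promoters of that length. *Cd79a* held 1 PU.1 core on the minus strand, whose first printed base is 140 bases before the start. *Sdc1* held 3 EBF1 cores, at 145, 110 and 96 bases before the start, and 1 PU.1 core at 230 bases. *Tnfrsf17* held 1 PU.1 core, and these letters were not found in the windows of *Pax5*, *Pou2af1* and *Tnfsf13b*. A match describes the letters only.

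To compare genes with each other, values were divided by the joined length of all annotated exons of a gene. That length ran from 0.815 kb for *Tnfrsf17* to 8.85 kb for *Pax5*, and the length of the transcripts expressed is not known here. Per kilobase of exon, the mean levels in HRS legs ran from *Sdc1* (9.64 normalized counts per kb ± 4.75, SD, n = 5) through *Mzb1* (2.51 ± 0.948), *Cd79b* (1.99 ± 1.3), *Cd79a* (1.3 ± 1.23), *Pou2af1* (0.955 ± 0.544), *Tnfsf13b* (0.669 ± 0.329), *Ms4a1* (0.292 ± 0.346) and *Tnfrsf17* (0.174 ± 0.109) to *Pax5* (0.0990 ± 0.101). *Sdc1* was set apart from the rest by more than the SD of either neighbour, whereas each adjacent pair from *Mzb1* to *Tnfsf13b* and from *Ms4a1* to *Pax5* lay within the larger SD of the pair. In contralateral PBS legs *Sdc1* was again at the top, at 2.29 ± 1.03 per kb, and *Mzb1* followed at 0.388 ± 0.225. *Sdc1* thus led the order of means in both legs, although in the HRS leg of m866 it was at 2.21 per kb and *Mzb1* at 2.82.

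The receptor pair rose together in HRS legs. *Cd79b*, the beta signalling chain, was at 2.19, 2.26, 6.13, 2.14 and 1.5 normalized counts in the HRS legs of m862 to m866, and at 0.288, 0.396, 0.369, 0.147 and 0.404 in the PBS legs of the same mice. Every HRS leg exceeded every PBS leg, and m864 was far above the other 4. The log2 fold change was 1.90 (SE 0.30, limma adjusted p = 0.000162 over 16414 genes), on the log2(normalized count + 0.5) scale used throughout, which understates the change of low genes. *Cd79a*, the alpha chain, measured 1.81, 0.659, 5.00, 1.17 and 0.810 in HRS legs and 0.256, 0.280, 0.693, 0.265 and 0.215 in the PBS legs. The HRS leg was the higher one in all 5 mice, but the groups overlapped, because the HRS leg of m863 lay just under the PBS leg of m864. Its log2 fold change was 1.28 (SE 0.40, limma adjusted p = 0.0124). This call did not hold with a pseudocount of 2 (0.64, adjusted p = 0.0515), under quantile normalization (0.90, adjusted p = 0.0582), without the HRS leg of m864 (0.91, adjusted p = 0.0307, under the fold threshold of 1) or without mouse m862 (1.20, adjusted p = 0.0515).

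*Ms4a1* encodes CD20, a surface protein lost as B cells become plasma cells. It was at 1.18, 0.529, 5.61, 0.730 and 0.997 normalized counts in the HRS legs and at 0.160, 0.280, 0.0462, 0.0882 and 0.0269 in the PBS legs. The groups did not overlap, and m864 again had the highest HRS value. The log2 fold change was 1.56 (SE 0.38, limma adjusted p = 0.00289), and it was 1.08 when m864 was left out. With a pseudocount of 2 it was 0.71 and not called, and with 0.1 it was 2.71. *Pax5*, the lowest of the tested genes per kilobase, was at 1.06, 0.432, 2.36, 0.409 and 0.125 in HRS legs and 0.160, 0.165, 0, 0.0882 and 0.0808 in PBS legs. The HRS value was above the PBS value in each mouse, by only 0.10 on the log2 scale in m866, where 4 reads stood against 3. Its log2 fold change of 0.99 (SE 0.32, limma adjusted p = 0.0153) stayed just under the threshold of 1 and was not called, and it fell to 0.61 without mouse m864. *Pax5* crossed the threshold in 11 of the alternatives, among them limma-voom (1.39, adjusted p = 0.00802).

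*Pou2af1*, a coactivator of octamer-binding factors used by B cells and plasma cells alike, showed the largest difference of the 8 in the reported fit. Its HRS legs stood at 3.92, 0.918, 3.89, 1.82 and 1.62 normalized counts, against 0.128, 0.132, 0.185, 0.0588 and 0.0808 in the PBS legs. No HRS leg came near the PBS range. The log2 fold change was 2.12 (SE 0.39, limma adjusted p = 0.000559), and it lay between 1.93 and 2.35 whichever mouse or library was left out, but moved to 3.38 with a pseudocount of 0.1 and to 1.01 with 2, where that of *Sdc1* (1.71) was larger.

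**Figure D1:**
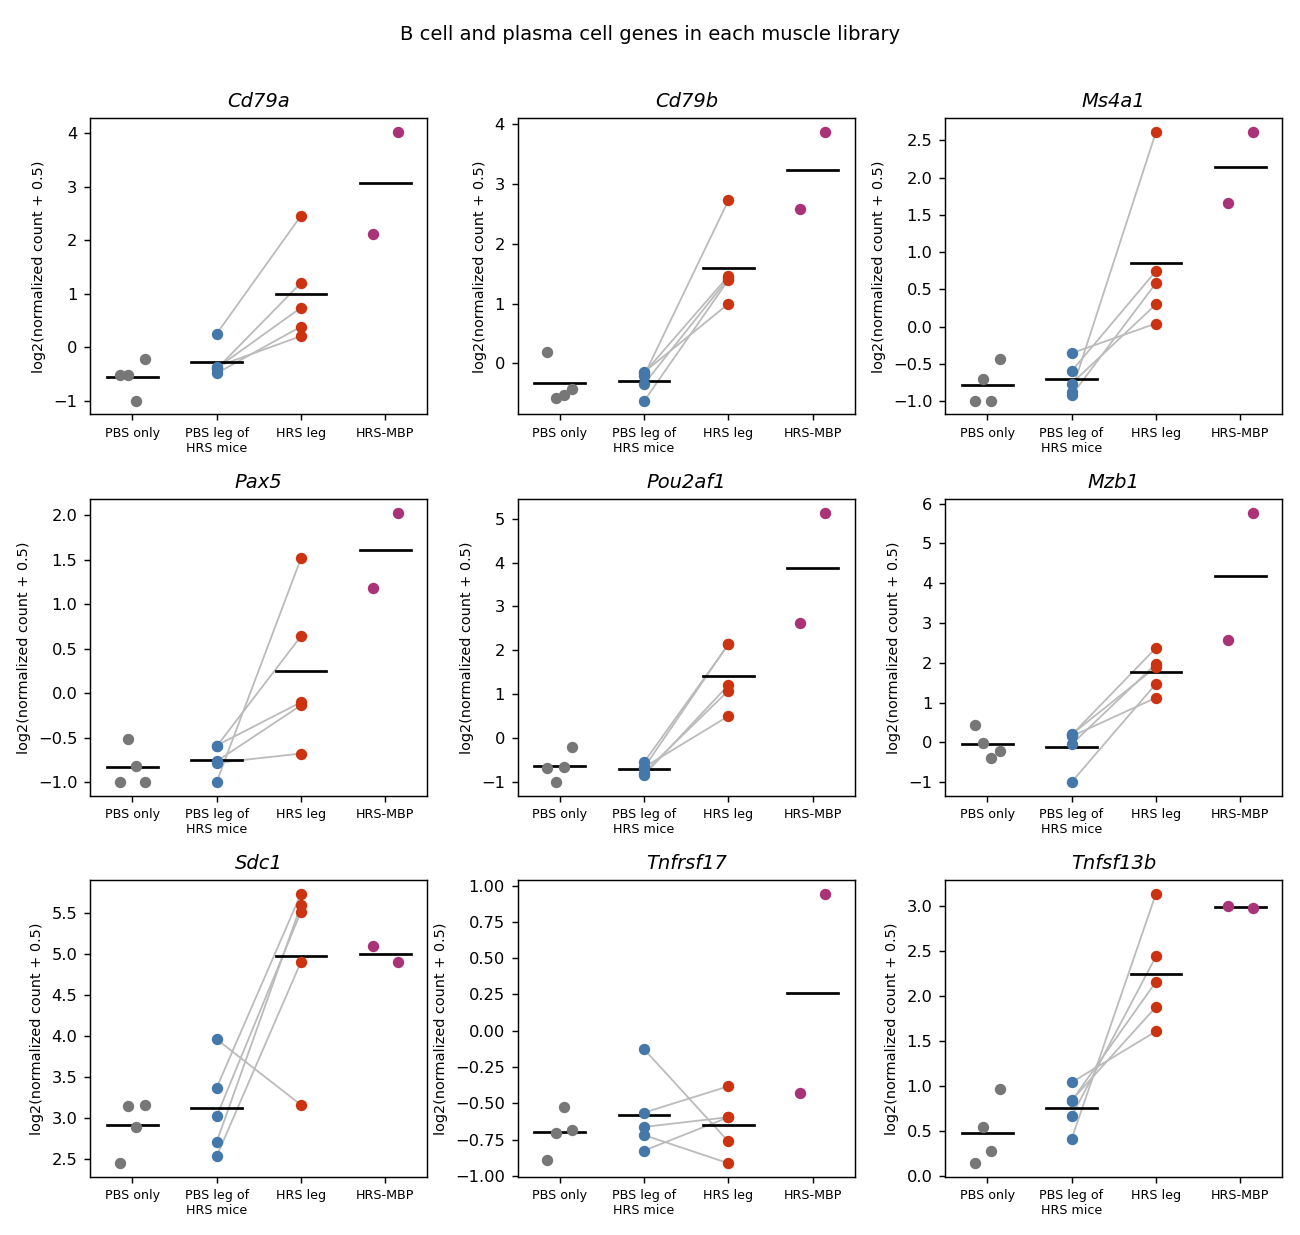
Each panel plots 1 gene as log2(normalized count + 0.5) on its own linear axis. Each point is a library, grey lines join the legs of 1 mouse, and black bars are group means (4 PBS-only legs, 5 contralateral PBS legs, 5 HRS legs and 2 HRS-MBP muscles). The lines of 7 genes rise in all 5 mice, that of *Sdc1* falls in m866, and *Tnfrsf17* has no common direction between legs.

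Among the plasma cell genes, *Mzb1*, an endoplasmic reticulum cochaperone of immunoglobulin assembly, was higher in every HRS leg. It was at 4.67, 1.68, 3.21, 2.27 and 3.43 normalized counts in HRS legs, and at 0.636, 0.610, 0.647, 3.1e-06 and 0.464 in the PBS legs. The value of 3.1e-06 in m865 is far below the worth of 1 read in that library (0.0294) and how it arose was not tested. The log2 fold change was 1.87 (SE 0.45, limma adjusted p = 0.00278), and 1.65 without that PBS library.

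*Sdc1* encodes syndecan-1 (CD138), which marks plasma cells but is also made by epithelia. Its HRS legs measured 29.4, 45.2, 52.7, 47.8 and 8.41 normalized counts, and its PBS legs 5.26, 7.58, 9.79, 6 and 15. In 4 mice the HRS leg was higher by 2.37 to 2.89 on the log2 scale, whereas in m866 it was lower by 0.80, so that the groups overlapped. The log2 fold change was 1.87 (SE 0.41, limma adjusted p = 0.00155) and reached 2.54 without m866. That same HRS leg of m866 had *Mzb1*, *Ms4a1* and *Cd79a* above its PBS leg. Beside *Sdc1*, the summed regenerating muscle markers were 510 to 1597 in the 4 other HRS legs, 72.7 in that of m866 and 82.2 to 246 in the PBS legs, and the epithelial markers summed to 25.2 to 46.0, 1.15 and 1.03 to 49.9 in the same order. The epithelial sum held different genes in different legs. In the HRS leg of m862 *Krt18* was at 24.5, *Krt8* at 12.6, and *Krt5* and *Krt14* at 0. In the PBS leg of m864 *Krt18* was at 1.34, *Krt8* at 0.739, *Krt5* at 24.6 and *Krt14* at 18.8. In the PBS leg of m863 *Krt18* (14.9) and *Krt8* (10.6) were again the largest. The part of these markers in the *Sdc1* values was not tested.

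*Tnfrsf17* encodes BCMA, the receptor that supports long-lived plasma cells. It was at 0.162, 0.162, 0.0893, 0.267 and 0.0312 normalized counts in HRS legs and at 0.0641, 0.132, 0.416, 0.176 and 0.108 in PBS legs, which rest on 1 to 15 reads each. The HRS leg was higher in 3 mice and lower in 2. Tested without the filter, over 26382 genes, the difference was -0.07 (95% interval -0.50 to 0.36, limma adjusted p = 0.813).

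*Tnfsf13b* encodes the ligand BAFF and stands for the signal that B cells and plasma cells receive rather than for the cells themselves. It was at 4.94, 3.97, 8.31, 3.19 and 2.56 normalized counts in HRS legs and at 1.09, 1.28, 0.831, 1.29 and 1.56 in PBS legs. All HRS legs exceeded all PBS legs, with m864 highest and m866 lowest. The log2 fold change was 1.49 (SE 0.25, limma adjusted p = 0.000227). The 8 macrophage and myeloid markers moved with it, summing to 1042 to 5120 in HRS legs (again lowest in m866 and highest in m864) and to 104 to 281 in PBS legs, and their part in the *Tnfsf13b* values was not tested.

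In all, 7 of the 8 tested genes were called higher in HRS legs than in contralateral PBS legs, where 16.9% of all tested genes were called higher. The median of the 8 log2 fold changes was 1.71, and that of all 16414 genes was 0.08. With the filter removed, 7 of the 9 genes were called, beside 2848 of 26382 genes. In 5 of the 8, every HRS leg exceeded every PBS leg, as did 18.3% of all tested genes. With a pseudocount of 2, *Pou2af1* (1.01), *Mzb1* (1.01) and *Sdc1* (1.71) were called, beside 1936 of 16414 genes called higher. *Cd79b* (0.99) and *Tnfsf13b* (0.98) then came just under the threshold. With 0.1, *Cd79b* and *Mzb1* both stood at 2.68. Without the HRS leg of m864 the count was 6, beside 15.1% of all tested genes, and without that of m866 it was 8, beside 19.8%.

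The same HRS libraries and the PBS-only legs were compared next. In mice m867 (right, left) and m868 (right, left), *Cd79b* was at 0.171, 0.647, 0.243 and 0.196 normalized counts, *Mzb1* at 0.483, 0.849, 0.364 and 0.261, and *Sdc1* at 8.36, 4.93, 8.37 and 6.91. *Cd79a* was at 0.199, 0.202, 0.364 and 0, *Ms4a1* at 0.114, 0, 0.243 and 0, and *Pax5* at 0.199, 0, 0 and 0.0652. *Pou2af1* stood at 0, 0.121, 0.364 and 0.130, *Tnfrsf17* at 0.114, 0.0404, 0.121 and 0.196, and *Tnfsf13b* at 0.966, 0.607, 1.46 and 0.717. No PBS-only leg stood out across these genes, and values of 0 occurred in *Cd79a*, *Ms4a1*, *Pax5* and *Pou2af1*. All 8 tested genes were called higher in HRS legs, at a background of 18.9%, with log2 fold changes from 1.08 for *Pax5* (SE 0.34, limma adjusted p = 0.0136) to 2.07 for *Sdc1* (SE 0.43, limma adjusted p = 0.00111). In 7 of the 8, all but *Pax5*, the groups did not overlap, as in 26.6% of tested genes. When both legs of a PBS-only animal were reduced to their mean, 7 were called, beside 2911 of 16414 genes called higher. *Pax5* was then no longer called (1.07, limma adjusted p = 0.0657), and without mouse m868 *Mzb1* also lost its call (1.56, adjusted p = 0.0562).

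The contralateral PBS legs were also set against muscle of mice that never received HRS. None of the 8 genes was called between contralateral PBS and PBS-only legs by limma, none had an unadjusted p under 0.05, and the adjusted p was 1 for each. Of all tested genes, 0.00609% were called in either direction, and 902 had an unadjusted p under 0.05. The differences ran from -0.06 for *Pou2af1* to 0.28 for *Cd79a* (95% interval -0.62 to 1.19), and the intervals of all 8 held 0. The widest, of *Mzb1*, reached from -1.07 to 0.96, which takes in the call threshold of 1 in the negative direction. Those of *Cd79a* and *Sdc1* (-0.71 to 1.12) took it in in the positive direction.

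**Figure D2:**
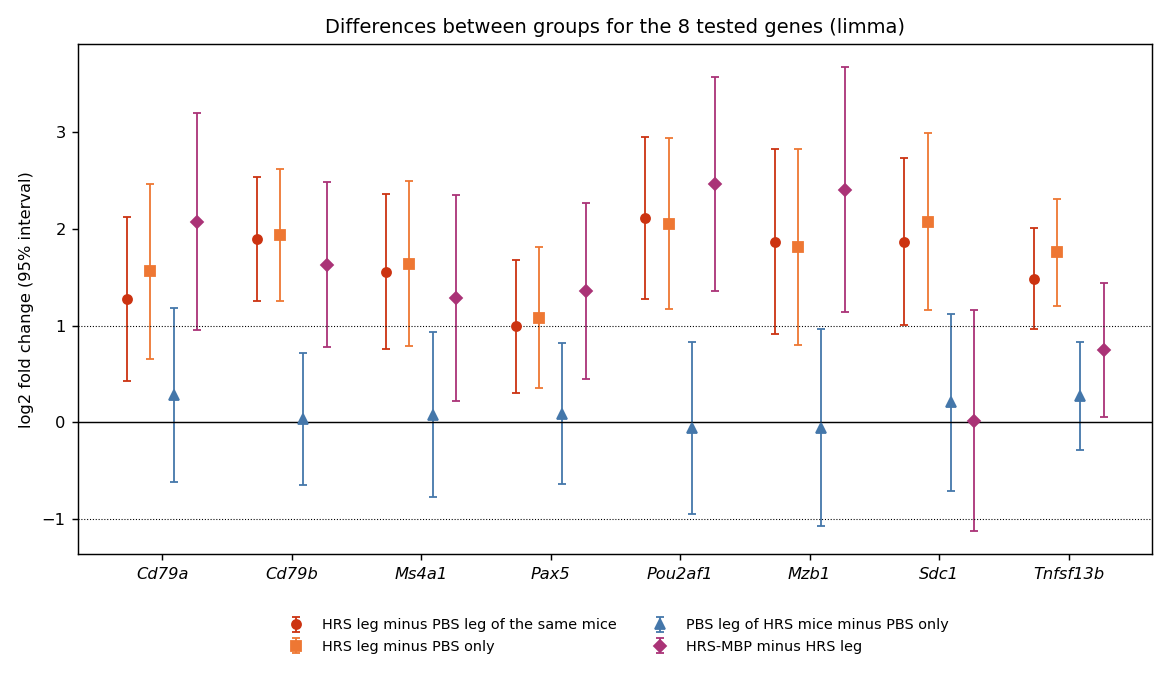
Log2 fold changes of the 8 tested genes with 95% limma intervals, on a linear axis with dotted lines at the call threshold of 1 in each direction. Circles and squares (HRS legs against either PBS group) lie between 0.99 and 2.12, triangles (contralateral PBS against PBS-only legs) lie near 0, and diamonds (HRS-MBP muscle against HRS legs) run from 0.02 for *Sdc1* to 2.46 for *Pou2af1*. Comparisons share libraries and are not independent of each other.

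The 2 HRS-MBP muscles exceeded all PBS-only legs in each of the 9 genes, as they did in 39.8% of all tested genes, and all 8 tested genes were called, at a background of 20.7%. Mouse m860 was at 3.87 normalized counts of *Cd79a*, 5.52 of *Cd79b*, 2.67 of *Ms4a1*, 1.77 of *Pax5*, 5.66 of *Pou2af1* and 5.46 of *Mzb1*. Mouse m861 was at 15.9, 14.2, 5.65, 3.58, 34.6 and 54.1 for the same genes. Mouse m861 was therefore above m860 in each, and by far the most in *Mzb1* and *Pou2af1*. For *Sdc1* the order was the other way, with 33.6 in m860 and 29.3 in m861, and *Tnfsf13b* was nearly equal at 7.54 and 7.38. *Tnfrsf17* was at 0.244 in m860 and at 1.42 in m861, the latter resting on 64 reads and above every other library. The log2 fold changes against PBS-only legs ran from 2.09 for *Sdc1* (SE 0.56, limma adjusted p = 0.00566) to 4.52 for *Pou2af1* (SE 0.54, limma adjusted p = 1.23e-05). That of *Mzb1*, 4.22 (SE 0.62), was 2.62 without m861, in a fit where m860 is a lone library whose spread is taken from the other groups. Without the filter *Tnfrsf17* differed by 0.96 (limma adjusted p = 0.0126), which is under the fold threshold.

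Set against the HRS legs themselves, 1 of the 8 genes was called higher in HRS-MBP muscle, *Pou2af1* (2.46, SE 0.52, limma adjusted p = 0.0495), where 0.396% of tested genes were called higher. Of the 9 genes, *Mzb1* and *Pou2af1* were higher in both HRS-MBP muscles than in every HRS leg, as were 7.1% of all tested genes. *Mzb1* differed by 2.41 (95% interval 1.14 to 3.67, adjusted p = 0.0920), *Cd79a* by 2.08 (0.95 to 3.20, adjusted p = 0.103) and *Cd79b* by 1.63 (0.78 to 2.48, adjusted p = 0.0893), all by limma and none called. *Sdc1* differed by 0.02, with an interval from -1.13 to 1.16. The call of *Pou2af1* rested on few libraries: it was lost without the HRS leg of m863 (limma adjusted p = 0.104) or m865 (adjusted p = 0.110). Its difference was 1.21 without m861 and 3.72 without m860. In these 2 fits 1 library alone stands for its group and is assumed to vary like the others, so that a call cannot be judged. Without the HRS leg of m864, 6 of the 8 genes and 3.25% of all tested genes were called higher. Without m861, *Mzb1* differed by 0.81, *Cd79a* by 1.12 and *Cd79b* by 0.99.

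The genes also stood in different proportions within single libraries. For each unit of *Cd79b*, m861 held 3.81 units of *Mzb1* and 2.44 of *Pou2af1*, and m860 held 0.989 and 1.03. The HRS legs held 2.13, 0.743, 0.525, 1.06 and 2.29 units of *Mzb1* per *Cd79b* in m862 to m866. The PBS legs overlapped that range, at 1.15 to 2.2 in the contralateral legs other than that of m865 and at 1.31 to 2.83 in the PBS-only legs, on 2 to 24 reads of *Cd79b*. Since *Cd79b* is the divisor, the ratio is not independent of its level. *Ms4a1* went the other way between m864 and m861, at 0.915 and 0.398 units per *Cd79b*. The other HRS legs held 0.537 (m862), 0.234 (m863), 0.342 (m865) and 0.667 (m866), and m861 lay within that range. These ratios compare levels of normalized counts within 1 library and have no replicate error.

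**Figure D3:**
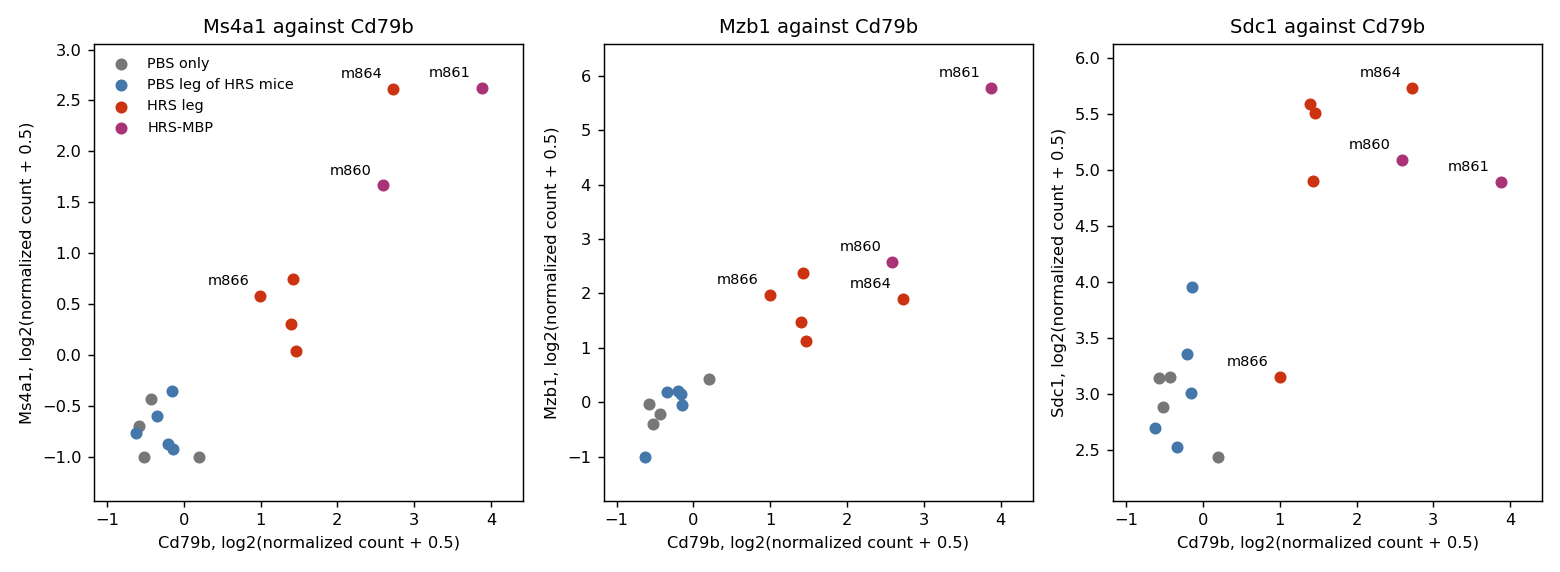
*Ms4a1*, *Mzb1* and *Sdc1* against *Cd79b* in the 16 libraries, each on a log2(normalized count + 0.5) scale, with 4 libraries named by mouse. The library of m861 stands at the top for *Mzb1*, level with m864 for *Ms4a1* and within the HRS legs for *Sdc1*, and the HRS leg of m866 lies among the PBS legs for *Sdc1* but not for *Ms4a1* or *Mzb1*.

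Likeness across the 16 libraries was described by the root mean square difference of log2 values after centring each gene on its mean, which carries no test. The libraries fall into immunized and PBS muscle, and any gene that differs between these by a similar amount comes out alike. *Cd300e* (0.375) and *Ms4a1* (0.41) were among the 3 genes most like *Cd79a*. Nearest to *Pax5* was *Ighd* (0.251), the immunoglobulin D heavy chain, before *Klrg1* and *Atp1b3*. *Mzb1* and *Pou2af1* were each other's nearest gene (0.422), and *Mzb1* was next to *Ighm* (0.486) and *Derl3* (0.544), while *Pou2af1* was next to *Cd300e* and *Lax1*. *Ms4a1* lay nearest to genes known from T cells, *Slamf1* (0.229), *Ifng* and *Pdcd1*, and *Cd79b* to *Icos* (0.280), *A530040E14Rik* and *Cd38*. *Sdc1* lay nearest to *Efemp2* (0.215), an extracellular matrix gene, *Dap* and *Pimreg*, and *Tnfsf13b* to *Nt5c* (0.167), *Dbnl* and *Cndp2*.

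The wider B cell and plasma cell programme was described by lists, with the calls between HRS legs and contralateral PBS legs, where 16.9% of all tested genes were called higher and 6.27% lower. In the BAFF and APRIL system 3 of 4 tested genes were called higher, and the 4 had a median of 1.70 on the log2 scale. The receptor TACI (*Tnfrsf13b*) had the largest, 2.43 (SE 0.29, limma adjusted p = 1.34e-05), and the BAFF receptor (*Tnfrsf13c*) the smallest, 0.66 (adjusted p = 0.0563). Of 16 B cell receptor and surface genes, 11 were tested, 7 were called higher and 1 lower. *Cd22*, an inhibitory coreceptor, had the largest change (3.37, limma adjusted p = 4.41e-05), from a mean of 0.203 ± 0.0887 to 8.84 ± 5.6 normalized counts (SD, n = 5), and *Bank1* the smallest (0.21, adjusted p = 0.524, with the opposite sign under quantile normalization). In the HRS legs of m862 to m866 *Cd22* was at 6.84, 9.03, 16.15, 11.2 and 0.952, and which cells gave these values was not tested. The gene called lower was *Cd24a* (-1.12, limma adjusted p = 0.00832), a surface protein also made by many other cells, and this call was lost with mouse as a block, with scaling to the same total and with limma-voom. Among 7 transcription factors 5 were called higher, from *Irf8* at 3.32, a factor that macrophages share, to *Ebf1* at 0.64, which was not called.

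Of 12 plasma cell programme genes, 7 were called higher and 0 lower, and the median was 1.25. *Slamf7*, a surface receptor of plasma cells and of other leukocytes, had the largest change (4.09, SE 0.40, limma adjusted p = 2.87e-06). *Xbp1*, which drives the secretory programme but is active in many tissues, had the smallest (-0.07, adjusted p = 0.644, positive when each library was scaled to the same total). *Xbp1* was at 110 ± 11.1 normalized counts in HRS legs and 115 ± 12.8 in PBS legs (SD, n = 5). Of 7 germinal centre genes, 4 were tested and 2 called higher, the largest change being that of *S1pr2* (2.14, limma adjusted p = 0.000106) and the smallest that of *Mybl1* (0.64, adjusted p = 0.0331, not called). *Bcl6*, the repressor that organizes the germinal centre programme, had the opposite sign (-0.68, limma adjusted p = 0.00831, not called).

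Markers of other cells moved in the same comparison. All 7 T cell markers and all 8 macrophage and myeloid markers were called higher, with medians of 2.60 and 3.48, and extremes of 4 for *Cd4* and 2.01 for *Cd5* and of 4.13 for *Adgre1* and 1.53 for *Mrc1*. Of lymph node stroma and high endothelial markers, 3 of 7 passed the filter and were called, from *Ccl19* (2.75) to *Cxcl13* (1.38, limma adjusted p = 0.0291), while *Madcam1* and *Glycam1* were at 0 in every PBS-only leg. Regenerating muscle markers had 4 of 6 called higher, or 3 with mouse as a block (*Mymk* 3.78, *Myod1* -0.15), and plasmacytoid dendritic cell markers 3 of 5 higher and 1 lower (*Pacsin1* 1.89, *Tcf4* 0.41). Skeletal muscle markers had 2 of 5 called lower (*Myh4* -1.18 and *Mb* -0.80, neither called), and epithelial markers 1 of 6, *Krt5* (-1.90, *Cdh1* -0.63). Neither list had a lower call with mouse as a block, with limma-voom, without the filter or with only the libraries compared. Under quantile normalization the skeletal muscle list had 0 and the epithelial list 4, while with a filter at a mean of 2 or no mean trend the skeletal muscle list had 4 of 5. The epithelial list had a median of -0.78, with *Krt14* at -1.64 (limma adjusted p = 0.0564) and *Epcam* at -0.93 (adjusted p = 0.159), neither called. Its keratins *Krt18* (1.74, limma adjusted p = 0.117) and *Krt8* (1.13, adjusted p = 0.347), looked at after their values were seen, had the opposite sign to *Krt5* and were not called. The part of these cells in the levels of shared genes such as *Slamf7*, *Irf8* and *Sdc1* was not tested.

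**Figure D4:**
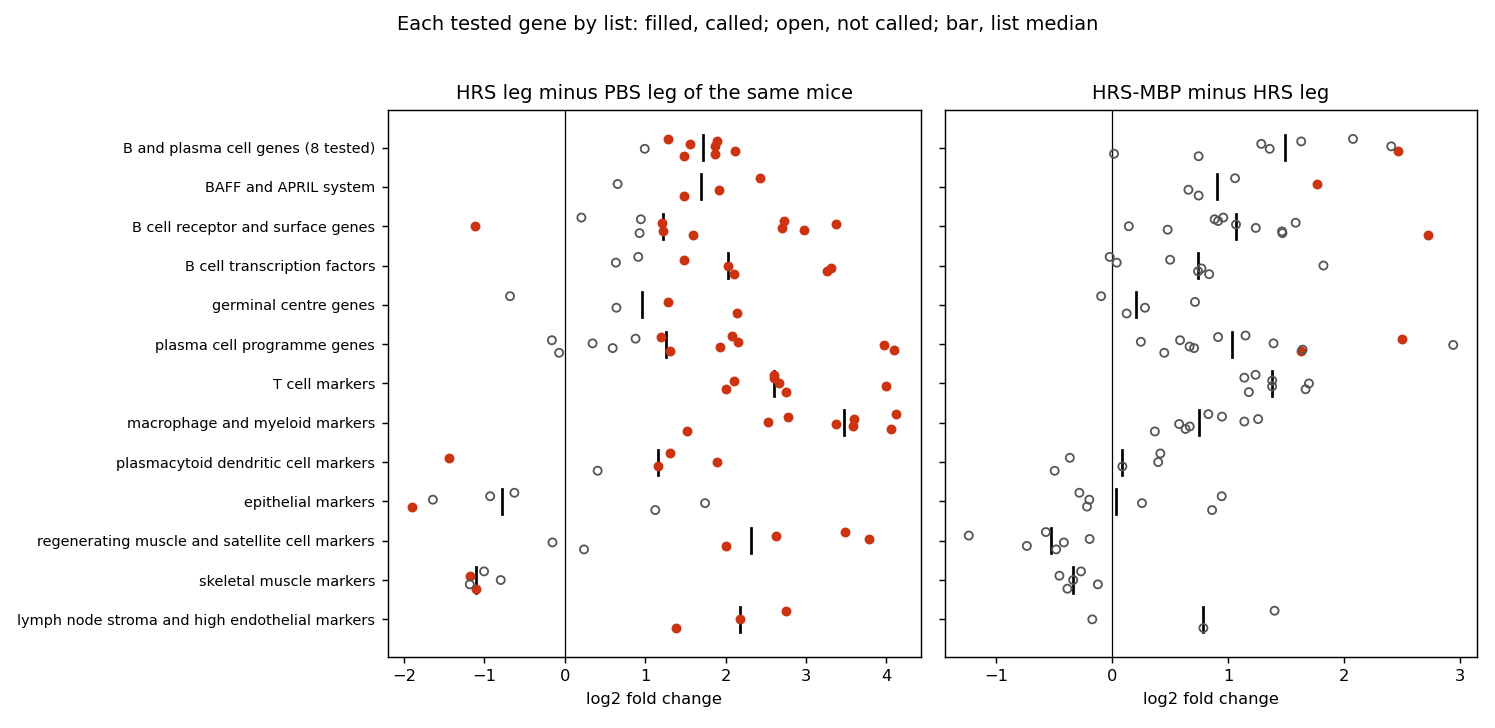
Log2 fold change of each tested gene by list, on linear axes, with filled points called, open points not called and a bar at the list median. In HRS legs (left) the medians of T cell and myeloid markers lie to the right of that of the 8 B and plasma cell genes, 1.71. In HRS-MBP muscle against HRS legs (right) the filled points are *Pou2af1*, *Tnfrsf13c*, *Ighm*, *Derl3* and *Tent5c*.

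In HRS-MBP muscle against HRS legs, the called genes of the lists were *Tnfrsf13c* (1.77), the heavy chain gene *Ighm* (2.73), *Derl3* (2.50), a gene of endoplasmic reticulum quality control, and *Tent5c* (1.63), named after their values were seen, with limma adjusted p from 0.0274 for *Derl3* to 0.0495 for *Ighm* and *Tnfrsf13c*, where 0.396% of all tested genes were called higher. Without m861, which leaves m860 alone, they differed by 1.02, 1.23, 1.16 and 0.98 in that order. None of the 4 was called with only the libraries compared (limma adjusted p of 0.438 to 0.519). *Ighm* was at 422 normalized counts in m860 and 3374 in m861, against 99 to 354 in HRS legs, 51.3 to 67.1 in contralateral PBS legs and 52.3 to 92.0 in PBS-only legs. *Jchain*, the joining chain of secreted immunoglobulin M and A, was at 75.9 and 600 in m860 and m861 and at 14.5 to 43.1 in HRS legs, with a difference of 2.94 that was not called (limma adjusted p = 0.0820). Both genes put m861 far above m860, as *Mzb1* and *Pou2af1* did. Within the HRS legs, *Ighm* was highest in m866 (354) and lowest in m864 (99), the reverse of the order of *Cd79b* in these 2 mice. T cell markers summed to 90.1 in m860 and 129 in m861, against 15.3 to 115 in HRS legs. Myeloid markers summed to 4389 and 4045, against 1042 to 5120 in HRS legs. Regenerating muscle markers separated the 2 muscles in the other direction, with 736 in m860 and 116 in m861, and their part in these values was not tested. None of the T cell or myeloid markers was called in this comparison. The 7 T cell markers were nevertheless higher by 1.14 (*Cd3d*) to 1.70 (*Cd3g*). Their median of 1.38 stood beside 1.495 for the 8 B and plasma cell genes and 0.75 for the myeloid markers.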

How the data were processed

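Poly(A) RNA of hamstring muscle was sequenced with a directional kit in 16 libraries of 9 mice. The authors deposited normalized counts per gene, used here as a signal per gene with no negative values, and how they scaled them is not given in the sources used here. The submitters' processing notes name STAR 2.7.8a, limma, mm39 and GRCm39, but positions in the table matched GENCODE M21 (GRCm38) starts for 99.4% of 25652 genes matched by symbol, so coordinates are given as GRCm38. Between 74.2% and 76.4% of low values (up to 20 steps) were whole multiples of 1 step within 0.02 steps, which gave the worth of 1 read and the implied depth but was too few for a count test.

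Differences were tested in R 4.3.3 with limma 3.58.1 (lmFit, then eBayes allowing for a mean trend) in a single fit of the 4 groups, after adding 0.5 to each value and taking log2. Genes were called at a Benjamini-Hochberg adjusted p under 0.05 over 16414 genes and a log2 fold change beyond 1 in either direction. The fit was tested on simulated data. Sums and motif searches used Python 3.11.15. Legs of m862 to m866 are paired by the mouse labels, and the correlations of their deviations from the group means were 0.119, 0.163, 0.0972, -0.0256 and -0.366. The fit shown has no mouse block. The alternatives changed the pseudocount, filter, scaling, variance model, libraries in the fit, pairing and each mouse or library.

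The 9 genes and the 12 other lists were chosen with earlier results of these data known. Named from each list were the genes with the largest and smallest absolute change between HRS and contralateral PBS legs, and for each of the 8 genes that passed the filter the 3 most alike, of which 1 is not reported here. Nothing in the labels says that the legs of 1 mouse vary like separate animals, so p-values against PBS-only legs measure partly the spread within 2 mice.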

Additional observations from a re-analysis of the deposited data

Results flagged for a closer look

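Of 27 sets of 4 or 5 libraries (9 genes in 3 groups), 4 had 1 library far from the others by Dixon's test, which chance gives in about 1 of 20 sets. *Cd79b* (6.13 normalized counts) and *Ms4a1* (5.61) were far above the other HRS legs in m864. *Cd79a* in the contralateral PBS leg of the same mouse, at 0.693, was far above the other 4 PBS legs, on 15 reads. *Mzb1* in the contralateral PBS leg of m865, at 3.1e-06, was far below the others.

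*Pou2af1* differed between HRS-MBP muscle and HRS legs, with a log2 fold change of 2.46 by limma's test of that difference (adjusted p = 0.0495), in a comparison of 2 with 5 libraries. The call was lost with only the libraries compared (limma adjusted p = 0.515), and the log2 fold change was 1.21 without m861.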

How the results depend on the processing

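Between HRS and contralateral PBS legs, 179 of 197 alternative values of single genes kept their direction and side of the threshold, 7 lost a call, 11 gained one (all *Pax5*) and 0 reversed. Against PBS-only legs 153 of 165 were kept and 12 lost a call, and for HRS-MBP muscle against PBS-only legs all 141 were kept. With a pseudocount of 2, 3 genes were called in each of the HRS leg comparisons in place of 7 and 8, beside 1936 and 2144 of 16414 genes called higher. A filter at a mean of 2 leaves 5 of the genes and 13402 in all. With that filter, 5 were called against PBS-only legs by HRS legs and by HRS-MBP muscle, beside 2478 and 2682 genes called higher. With mouse as a replicate block the count against contralateral PBS legs remained 7, beside 2709 of 16414 genes called higher. No call of these genes changed, and the limma adjusted p ran from 0.00325 for *Pou2af1* to 0.0580 for *Pax5*. Scaling each library to the same total moved the median of all genes from 0.08 to 0.46 and quantile normalization to -0.16. All genes called higher and lower were 2781 and 1029 as reported, 4240 and 320 when scaled to that total, 4312 and 251 with limma-voom and 2093 and 1632 after quantile normalization, and 8, 8 and 6 of the 9 genes were then called higher.

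For HRS-MBP muscle against HRS legs, the count of 1 became 0 with a pseudocount of 0.1, the stricter filter, scaling to the same total, limma-voom or only the libraries compared (*Pou2af1* adjusted p of 0.0547 to 0.515), and ranged from 0 to 6 as single libraries were left out. *Sdc1*, at 0.02, reversed with a pseudocount of 2 (-0.00297), with quantile normalization (-0.0565) and with 3 libraries left out in turn, its range being -0.44 to 0.20. Between the PBS groups, where none of the B and plasma cell genes was called under any alternative, *Cd79b* reversed under quantile normalization (-0.0666). With libraries or mice left out there, *Cd79b* ranged from -0.11 to 0.21, *Ms4a1* from -0.00691 to 0.20, *Mzb1* from -0.31 to 0.20, *Sdc1* from -0.00591 to 0.35 and *Pou2af1* from -0.26 to 0.14. The cause of these changes was not tested. Over 10 alternative settings without libraries left out, B cell surface genes had 5 to 9 called higher and plasma cell programme genes 5 to 9. Depth limits *Pax5*, *Ms4a1*, *Pou2af1* and *Tnfrsf17* in PBS muscle.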
